A study of Mus musculus with 16 samples.

Results

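The genes described here mark or maintain the stem cell compartment of the intestinal crypt. They are the 10 genes Lgr5, Ascl2, Olfm4, Smoc2, Axin2, Rnf43, Tnfrsf19, Cdk6, Sox9 and Slc12a2, chosen by name as known crypt stem cell and Wnt target genes, out of 55359 genes in the table of read counts. All 10 were found by their Ensembl identifiers and had enough reads to be tested in every comparison. They were measured in 16 total RNA libraries of duodenum and ileum, taken from C57BL/6N mice, all adult males kept on a high fat diet. Mutant mice (Neurog3f/f; Villin-CreERT2) carried floxed Neurog3 alleles and CreERT2, a recombinase activated by tamoxifen and driven by the epithelial Villin promoter. Control mice (Neurog3f/f) carried the same floxed alleles without CreERT2. The tissues were taken 5 weeks after tamoxifen from 4 mutant animals, numbered M136, M167, M168 and M177, and from 4 control animals, numbered C133, C134, C151 and C154. Each mouse gave 1 library per tissue, and libraries are listed below in this order of mice. Neurog3 is the factor that commits crypt progenitors to the enteroendocrine, hormone-secreting lineage, and the mutant mice were made to lose it in the epithelium.

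Stem cells at the crypt base divide throughout life and renew the epithelium. Wnt ligands and R-spondins from Paneth cells and the surrounding mesenchyme keep them undifferentiated. Beta-catenin and TCF factors then switch on a set of target genes, among them Lgr5, Ascl2, Axin2 and Rnf43, and Notch signals from neighbouring cells hold back the secretory fates. Some targets feed back: Axin2 and Rnf43 both dampen the Wnt signal that induces them.

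The libraries held 40.9 to 67.2 M counts. Levels are counts per M (CPM), scaled for library composition. Neurog3 had 1 count over the 4 libraries of mutant duodenum and 1 count over those of mutant ileum, against 549 counts in control duodenum and 201 counts in control ileum. Of the crypt stem cell genes, Ascl2 had the fewest reads, 114 to 382 counts per library. Epithelial markers such as Epcam, Krt8 and Vil1 were present in every library, with summed levels of 8132 to 14684 CPM over 10 genes. The samples were pieces of whole tissue, so fewer cells of a type and less RNA per cell cannot be told apart. Unless another test is named, log2 fold changes, standard errors (SE) and adjusted p-values come from edgeR's quasi-likelihood test with Benjamini-Hochberg adjustment over all tested genes, and the words rose and fell are kept for genes with an adjusted p under 0.05.

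Per kilobase of exon, Olfm4 stood far above the other genes in all 4 groups. Its mean level was 228 CPM per kilobase in mutant duodenum, 275 in control duodenum, 90.1 in mutant ileum and 222 in control ileum. Olfm4 encodes olfactomedin 4, a glycoprotein secreted by crypt base cells. Slc12a2, the basolateral sodium, potassium and chloride cotransporter of secretory crypt cells, came next, between 23.4 CPM per kilobase in control duodenum and 34.95 in control ileum. At the other end were Lgr5, Ascl2 and Tnfrsf19. Lgr5 is the R-spondin receptor that defines the cycling stem cell, and Ascl2 is a transcription factor of the stem cell programme. Tnfrsf19 is a Wnt-induced receptor of the TNF receptor family also known as Troy. These 3 genes had means between 0.748 and 3.17 CPM per kilobase and took the last 3 places in every group. The order in the middle changed with the tissue: Rnf43 held the third place in both duodenum groups and Axin2 in both ileum groups.

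**Figure D1:**
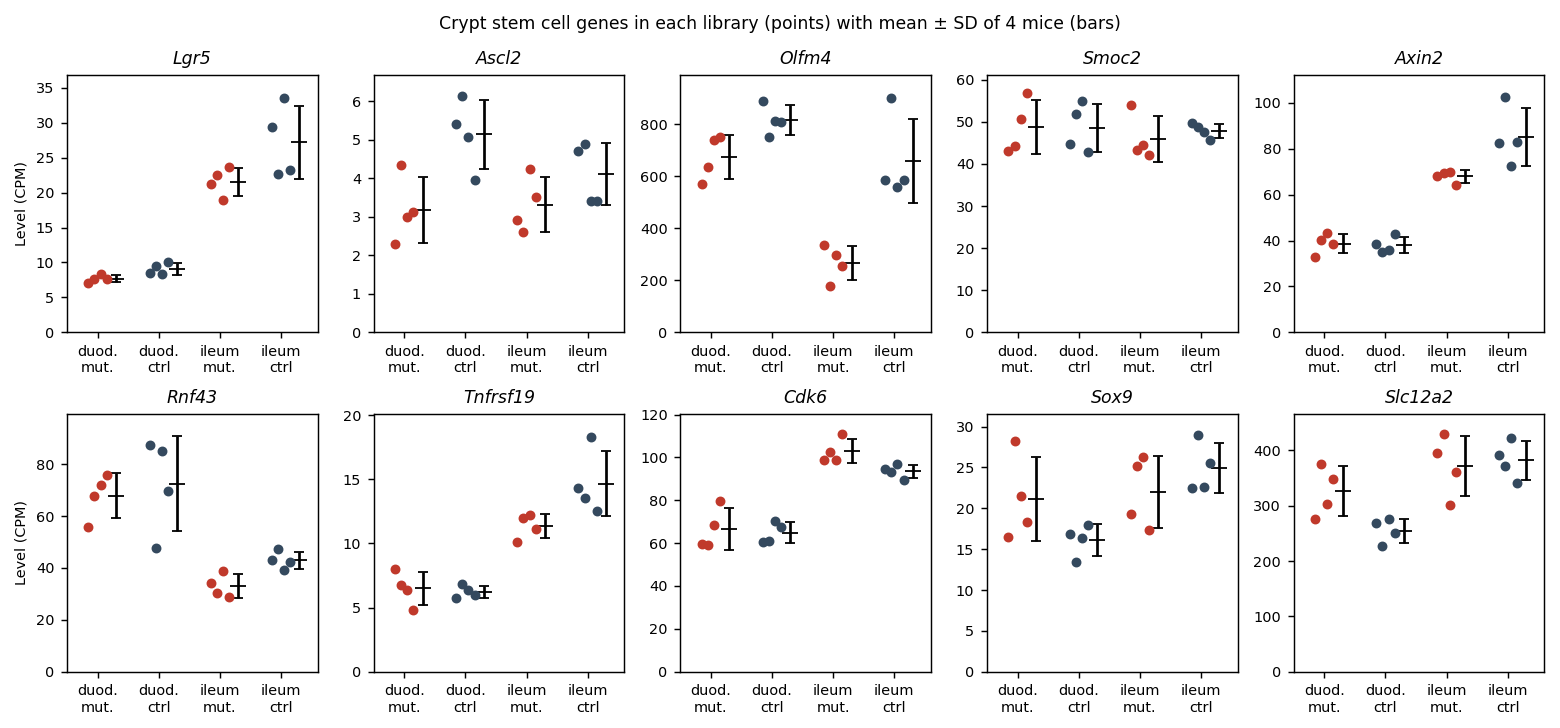
Level (CPM, linear axes from 0) of each of the 10 genes in each library; red points are mutant mice, dark points control mice, and the bars beside them are the mean ± SD of 4 mice. The 4 mutant ileum libraries lie at 179.5 to 334 CPM for Olfm4, all below the control ileum libraries at 560.4 to 899 CPM, and Lgr5, Axin2, Tnfrsf19 and Cdk6 lie higher in ileum than in duodenum in both genotypes.

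In the ileum, 2 of the 10 genes, Olfm4 and Rnf43, fell in mutant mice and none rose. Of all 18310 genes tested in the ileum, 14.6% fell and 33.6% changed in either direction, so that the share of these genes that changed was no larger than that of all genes. The DESeq2 Wald test called 4 of the 10, adding Axin2 and Tnfrsf19, and 37.6% of all genes. Fold changes were negative for 9 of the 10 genes, and their median was -0.29 on the log2 scale, against -0.032 over all genes tested. The falls were uneven: Olfm4 fell 2.43-fold and Rnf43 1.28-fold, and the estimates of the other 8 genes lay between -0.34 for Tnfrsf19 and 0.16 for Cdk6.

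The promoters of the members that changed, and of 2 further Wnt-responsive members, are shown because the factors that read out Wnt and Notch signals bind short DNA motifs. Each sequence is from RefSeq on GRCm38.p6, an earlier assembly than the mm39 assembly of the counts, and runs from 250 bases before to 50 bases after an annotated start, 5′ to 3′ on the strand of the gene. Capitals mark matches, on either strand, to the TCF/LEF cores CTTTGA or CTTTGT, the RBPJ (Notch) core TGGGAA or the TATA core TATAA, the last added after the sequences were seen. The regions are chr14:80000052-80000351 on the plus strand for Olfm4, chr11:87662837-87663136 on the plus strand for the first annotated start of Rnf43, chr11:108920099-108920398 on the plus strand for Axin2 and chr14:61037938-61038237 on the minus strand for the second annotated start of Tnfrsf19, shown because its first start held no match.
Olfm4: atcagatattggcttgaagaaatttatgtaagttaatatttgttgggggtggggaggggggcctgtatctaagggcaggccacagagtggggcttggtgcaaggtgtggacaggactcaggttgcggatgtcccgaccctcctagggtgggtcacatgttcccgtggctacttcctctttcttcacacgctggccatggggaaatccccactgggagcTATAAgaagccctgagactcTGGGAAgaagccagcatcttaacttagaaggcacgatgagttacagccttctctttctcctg
Rnf43: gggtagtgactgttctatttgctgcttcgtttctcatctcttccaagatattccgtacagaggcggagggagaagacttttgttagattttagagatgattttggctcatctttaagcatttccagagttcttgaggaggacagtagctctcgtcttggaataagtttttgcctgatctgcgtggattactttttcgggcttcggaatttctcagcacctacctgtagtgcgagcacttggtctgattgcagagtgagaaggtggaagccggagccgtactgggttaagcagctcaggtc
Axin2: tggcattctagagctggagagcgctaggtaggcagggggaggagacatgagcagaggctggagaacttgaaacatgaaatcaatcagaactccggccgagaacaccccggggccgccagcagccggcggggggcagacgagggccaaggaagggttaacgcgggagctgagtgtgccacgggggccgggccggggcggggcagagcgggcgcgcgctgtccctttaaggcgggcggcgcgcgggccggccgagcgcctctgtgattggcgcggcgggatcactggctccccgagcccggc
Tnfrsf19: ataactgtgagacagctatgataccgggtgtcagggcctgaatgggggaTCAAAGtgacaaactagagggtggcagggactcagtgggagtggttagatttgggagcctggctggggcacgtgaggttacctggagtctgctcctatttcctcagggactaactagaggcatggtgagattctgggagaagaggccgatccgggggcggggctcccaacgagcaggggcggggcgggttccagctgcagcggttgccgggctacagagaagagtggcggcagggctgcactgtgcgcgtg
The Olfm4 window held the RBPJ core 12 bases and the TATA core 32 bases before the start. The Tnfrsf19 window held a TCF/LEF core, TCAAAG on the strand shown, 201 bases before the start, and the Rnf43 and Axin2 windows held none of these letters, nor did those of the first Tnfrsf19 start and the second Rnf43 start; no matches overlapped each other. Of the 8 windows of 6 genes, 1 held a TCF/LEF core (12.5%), 1 the RBPJ core and 2 the TATA core. Over all 32851 promoters of the same length, 31.2% held a TCF/LEF core, 25.6% the RBPJ core and 24.9% the TATA core, so that such matches are common. RefSeq windows were at hand for 6 of the 10 genes, the others being Ascl2 and Cdk6; Lgr5, Smoc2 and Sox9 are named only, and Slc12a2 is not shown.

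Among the stem cell markers, Olfm4 (ENSMUSG00000022026) was read at 334, 179.5, 298 and 256 CPM in mutant ileum (M136, M167, M168, M177), against 585, 899, 560.4 and 584 CPM in control ileum (C133, C134, C151, C154). The groups were far apart, with every mutant library below every control library and C134 high among the controls. The means were 267 ± 66.5 CPM in mutant ileum and 657 ± 162 CPM in control ileum (SD, n = 4 each), and the log2 fold change was -1.28 (SE 0.21, 95% interval -1.74 to -0.81, edgeR adjusted p = 0.00133). Without C134 the log2 fold change was -1.09 (edgeR adjusted p = 0.00159).

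Lgr5 (ENSMUSG00000020140) had 21.2, 22.5, 18.9 and 23.6 CPM in mutant ileum, against 29.3, 22.6, 33.5 and 23.2 CPM in control ileum. The groups overlapped, since mutant M177 lay above controls C134 and C154, and mutants M136 and M167 lay just below those controls. The log2 fold change was -0.31 (SE 0.13, 95% interval -0.60 to -0.014) and did not pass (edgeR adjusted p = 0.0994). It passed in 3 of 18 alternative fits, among them the one without C134 and C154 (-0.50, edgeR adjusted p = 0.0289), and the estimates ranged over -0.50 to -0.14.

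Ascl2 (ENSMUSG00000009248), the basic helix-loop-helix factor of these cells, ranged over 2.60 to 4.25 CPM in mutant ileum and 3.41 to 4.90 CPM in control ileum, with a log2 fold change of -0.29 (SE 0.20, edgeR adjusted p = 0.292). Smoc2 (ENSMUSG00000023886), a secreted matrix-binding protein, ranged over 42.0 to 54.0 CPM in mutant ileum and 45.8 to 49.6 CPM in control ileum. Its log2 fold change was -0.036, with a 95% interval of -0.24 to 0.17 (edgeR adjusted p = 0.786).

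Of the Wnt targets, Rnf43, Axin2 and Tnfrsf19 had all 4 mutant ileum libraries below all 4 controls. The groups of Lgr5 and Ascl2, which are Wnt targets as well, overlapped. Groups stood apart, in either direction, for 32.5% of all genes tested in the ileum. Rnf43 (ENSMUSG00000034177), the membrane ubiquitin ligase that removes Wnt receptors from the cell surface, had 34.1, 30.5, 39.0 and 28.7 CPM in mutant ileum, against 43.2, 47.2, 39.3 and 42.2 CPM in control ileum. The gap between the groups was narrow, with mutant M168 just under control C151. The log2 fold change was -0.35 (SE 0.11, edgeR adjusted p = 0.0271), and the call did not hold in 9 of 18 alternative fits, among them those without control C133, C134 or C154 or mutant M177 (edgeR adjusted p of 0.0551, 0.0731, 0.0598 and 0.0781).

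Axin2 (ENSMUSG00000000142), a scaffold of the complex that degrades beta-catenin, had 68.0, 69.7, 70.1 and 64.2 CPM in mutant ileum, against 82.5, 103, 72.6 and 82.8 CPM in control ileum. The mutant libraries were close together and all lay below the lowest control, C151. Its fold change of -0.30 on the log2 scale (SE 0.11) missed the threshold by little (edgeR adjusted p = 0.0532), which it passed in 5 of 18 alternative fits. Tnfrsf19 (ENSMUSG00000060548) had 10.1, 12.0, 12.3 and 11.1 CPM in mutant ileum, against 14.3, 13.5, 18.3 and 12.5 CPM in control ileum. Here too the groups stood apart, by a small gap between mutant M168 and control C154, and the log2 fold change of -0.34 (SE 0.13) did not pass (edgeR adjusted p = 0.0683), save in 2 of 18 alternative fits.

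The other 3 genes act in progenitors as well as in stem cells. Cdk6 (ENSMUSG00000040274), a kinase of the G1 phase, had 99.0, 103, 99.0 and 111 CPM in mutant ileum, against 94.4, 93.2, 97.0 and 89.4 CPM in control ileum. It was the one member with all mutant libraries above all controls, yet its log2 fold change of 0.16 (SE 0.077) did not pass (edgeR adjusted p = 0.128). Sox9 (ENSMUSG00000000567), a transcription factor of crypt base and Paneth cells, ranged over 17.4 to 26.3 CPM in mutant ileum and 22.5 to 29.0 CPM in control ileum (log2 fold change -0.15, edgeR adjusted p = 0.464). Slc12a2 (ENSMUSG00000024597) ranged over 302 to 429 CPM in mutant ileum and 341 to 423 CPM in control ileum (log2 fold change -0.0095, 95% interval -0.28 to 0.26, edgeR adjusted p = 0.960). In all, the groups stood apart for 5 of the 10 genes in the ileum, against 32.5% of all genes tested there.

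Most of the lower total of these genes in mutant ileum was Olfm4. The summed level of all 10 was 914 to 1039 CPM in mutant ileum and 1249 to 1632 CPM in control ileum. Leaving out Olfm4, it was 616, 663, 704 and 738 CPM in mutant ileum and 665, 733, 733 and 757 CPM in control ileum, and these ranges overlapped. Olfm4 gave 19.6 to 32.6% of the reads of the 10 genes in mutant ileum and 42.5 to 55.1% in control ileum.

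In the duodenum, 0 of the 10 genes rose or fell in mutant mice, where 8.55% of 17611 genes did. The positive and negative estimates were 6 and 4, with a median of 0.040 on the log2 scale against 0.024 over all genes. Ascl2, Slc12a2 and Sox9 had an unadjusted p under 0.05, 3 of 10, where 29.2% of all genes did, and the DESeq2 Wald test called 2 of the 10, Ascl2 and Slc12a2, where it called 17.6% of all genes. These shares are near those over all genes. Neither Olfm4 nor Rnf43, which fell in the ileum, passed in the duodenum.

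Ascl2 had 2.30, 4.35, 2.99 and 3.12 CPM in mutant duodenum, against 5.41, 6.13, 5.08 and 3.96 CPM in control duodenum. Only mutant M167 and control C154 crossed over. The estimate was -0.66 on the log2 scale (SE 0.22, edgeR adjusted p = 0.0787) and, without M167, -0.86 (edgeR adjusted p = 0.0397), the one left-out mouse that brought a member past the threshold in this tissue. Lgr5 had 7.10, 7.70, 8.33 and 7.58 CPM in mutant duodenum, against 8.45, 9.55, 8.35 and 10.1 CPM in control duodenum. Its groups touched without overlapping, mutant M168 lying just under control C151, and the log2 fold change was -0.22 (SE 0.12, edgeR adjusted p = 0.248).

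Olfm4 had 572, 635, 741 and 749.6 CPM in mutant duodenum, against 891, 750.4, 814 and 809 CPM in control duodenum. The groups again touched without overlapping, mutant M177 lying just under control C134. Its log2 fold change was -0.25 (SE 0.14, 95% interval -0.56 to 0.064, edgeR adjusted p = 0.267). Lgr5 and Olfm4 were the 2 members with groups apart in the duodenum, where 18.7% of all genes had them.

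Slc12a2 had 275, 376, 303 and 349 CPM in mutant duodenum, against 268, 227, 276 and 250.1 CPM in control duodenum. Mutant M136 lay within the control range and the other 3 mutants above it, with a log2 fold change of 0.38 (SE 0.13, edgeR adjusted p = 0.0905). Sox9 had 16.5, 28.3, 21.5 and 18.3 CPM in mutant duodenum, against 16.9, 13.4, 16.3 and 17.97 CPM in control duodenum, a log2 fold change of 0.42 (SE 0.17, edgeR adjusted p = 0.140) with M167 well above the rest. For Smoc2, Axin2, Rnf43, Tnfrsf19 and Cdk6 the estimates lay between -0.068 and 0.087, with adjusted p of 0.739 or more in edgeR. Rnf43 varied most among the controls, with 47.8 CPM in C134 and 69.6 to 87.2 CPM in the other 3.

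**Figure D2:**
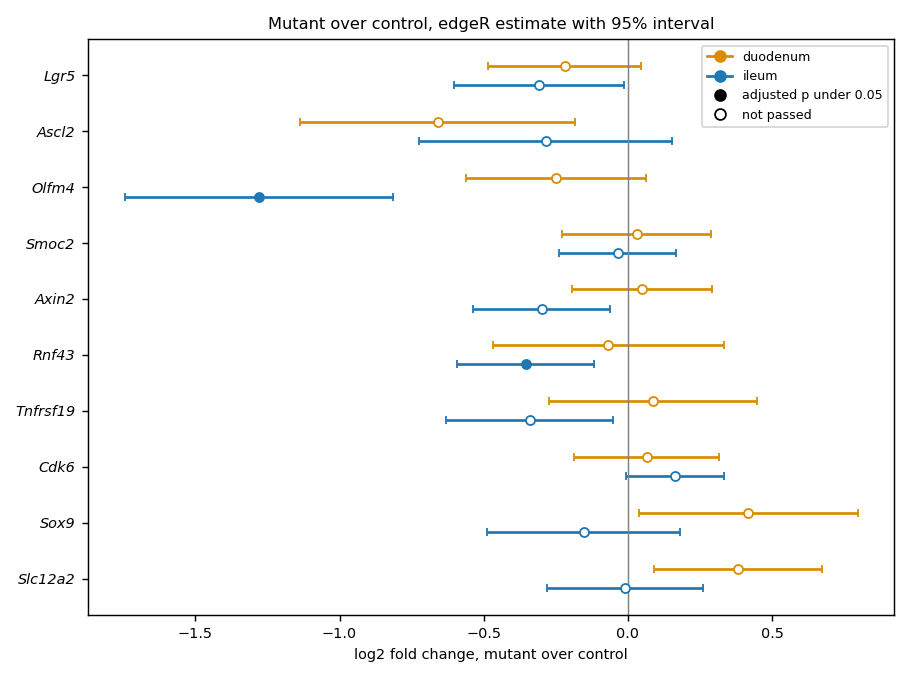
Log2 fold change, mutant over control, of each gene in duodenum (orange) and ileum (blue), edgeR estimates from 4 mice per group with 95% intervals; filled points have an adjusted p under 0.05. Olfm4 at -1.28 and Rnf43 at -0.35 in ileum are the filled points, and the Olfm4 interval in ileum lies wholly below its interval in duodenum.

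Whether the genotype acted differently on these genes in both tissues was tested as the ileum effect minus the duodenum effect over all 16 libraries. Olfm4 was the member that differed, with a more negative effect in the ileum: the difference was -1.04 on the log2 scale (SE 0.26, edgeR adjusted p = 0.0254), where 4.13% of 19289 genes differed in that direction, 4.86% in the other and 8.99% in either. The Olfm4 call was lost without control C133, C134, C151 or C154 or mutant M177. In these fits the edgeR adjusted p was 0.0556 to 0.0737 and the difference -0.84 to -1.14 on the log2 scale. Fewer of all genes passed in them, from 99 higher and 85 lower without C151 to 678 and 382 without M177. The main fit had 938 and 796. The Olfm4 call held without M136, where 243 were higher and 228 lower. With the mouse as a block, which the pairing of tissues allows, Sox9 passed beside Olfm4, with a difference of -0.58 (edgeR adjusted p = 0.0343). That fit called more of all genes, 2090 of 19289 higher and 1937 lower. Without the block the Sox9 difference was -0.59 (edgeR adjusted p = 0.111). The level of the exocrine pancreas genes, high in duodenum of M167 and M177, was not used as a covariate in these tests. The differences for Axin2, Slc12a2 and Tnfrsf19 were -0.37, -0.41 and -0.45 and did not pass (edgeR adjusted p of 0.120, 0.141 and 0.159). For Lgr5 the difference was -0.11, with a 95% interval of -0.49 to 0.27.

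Between the tissues, the crypt stem cell genes split into genes higher in ileum and genes lower there: Lgr5, Axin2, Tnfrsf19 and Cdk6 were higher and Rnf43 was lower in both genotypes. In mutant mice these 4 of 10 were higher in ileum than in duodenum, where 12.9% of 17852 genes were, and 2 were lower (Olfm4 and Rnf43), where 18.2% were and 31.1% changed in either direction. These 6 were also the members whose tissues did not overlap, which 32.2% of all genes did not. In control mice 6 of 10 were higher in ileum (the same 4 with Sox9 and Slc12a2), where 28% of 18217 genes were, and 1 was lower (Rnf43), where 30.3% were and 58.3% changed in either direction. The same 7 had no overlap between the tissues, as had 53.6% of all genes. The mutant and the control mice are different animals, but the libraries of each tissue contrast are those of the genotype comparisons above, so the contrasts are not independent of each other.

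Lgr5 showed the widest tissue gap. Its ileum level was 2.99, 2.92, 2.27 and 3.11 times that of duodenum in the 4 mutant mice, and 3.47, 2.37, 4.01 and 2.31 times in the 4 control mice. Every ileum library, at 18.9 CPM or more, lay above every duodenum library, at 10.1 CPM or less. The log2 fold change was 1.49 (SE 0.12, edgeR adjusted p = 1.14e-05) in mutant mice and 1.59 (SE 0.14, edgeR adjusted p = 5.83e-06) in control mice. Axin2 was higher in ileum by 0.81 (SE 0.11) in mutant mice and 1.17 (SE 0.11) in control mice on the log2 scale, and Tnfrsf19 by 0.81 (SE 0.17) in mutant mice and 1.25 (SE 0.13) in control mice. The call for Tnfrsf19 in mutant mice was lost without M167 and M177 (edgeR adjusted p = 0.0617). Cdk6 was higher by 0.63 (SE 0.12) in mutant mice and 0.54 (SE 0.073) in control mice, with edgeR adjusted p of 0.00231 and 0.000104.

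Rnf43 went the other way, with ileum at 0.378 to 0.609 times duodenum in mutant mice and 0.461 to 0.989 times in control mice. All 8 mice had less Rnf43 in ileum, though control C134 was close to equal. The log2 fold change was -1.04 (SE 0.13, edgeR adjusted p = 0.000225) in mutant mice and -0.74 (SE 0.17, edgeR adjusted p = 0.00514) in control mice. Olfm4 was at 0.283 to 0.585 times its duodenum level in ileum of mutant mice, with a log2 fold change of -1.34 (SE 0.19, edgeR adjusted p = 0.000412). In control mice 3 of 4 had less Olfm4 in ileum, at 0.657 to 0.721 times duodenum, and C134 had 1.20 times as much, with a log2 fold change of -0.30 (SE 0.15, edgeR adjusted p = 0.117). Without C134 the control contrast was -0.49 and passed (edgeR adjusted p = 0.00191).

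Sox9 and Slc12a2 were higher in ileum in control mice, by 0.64 (SE 0.11, edgeR adjusted p = 0.000751) and 0.60 (SE 0.10, edgeR adjusted p = 0.000583) on the log2 scale. In mutant mice the same contrasts were 0.060 (SE 0.20) for Sox9 and 0.19 (SE 0.16) for Slc12a2 and did not pass. The tests of those genotype differences are the ones given above. Ascl2 and Smoc2 passed in neither genotype, and Smoc2 was the most even member, with tissue estimates of -0.083 in mutant mice and -0.0044 in control mice.

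Markers of other cells differed between the tissues as well, beside the 12.9% of all genes higher and 18.2% lower in ileum of mutant mice and the 28% higher and 30.3% lower in ileum of control mice. Of 9 Paneth markers, 5 were higher in ileum of mutant mice and 9 in ileum of control mice, with none lower. Of 8 smooth muscle markers, 7 were higher in mutant mice and 8 in control mice, with sums of 2328 to 3937 CPM in mutant ileum, 896 to 1587 CPM in mutant duodenum, 2070 to 2994 CPM in control ileum and 744 to 1064 CPM in control duodenum. Of 8 fibroblast markers 7 were higher and 1 lower in each genotype. Of 10 enterocyte markers, 7 were lower and 1 higher in mutant mice and 8 lower and 1 higher in control mice, and 9 of 10 T cell markers were lower in mutant mice and 6 in control mice. All 12 exocrine pancreas genes were lower in ileum of mutant mice, and in control mice edgeR called 0 of the 11 tested, with 0 at an unadjusted p under 0.05. The part of these markers in the tissue contrasts of the crypt stem cell genes, Sox9 of Paneth cells among them, was not tested.

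**Figure D3:**
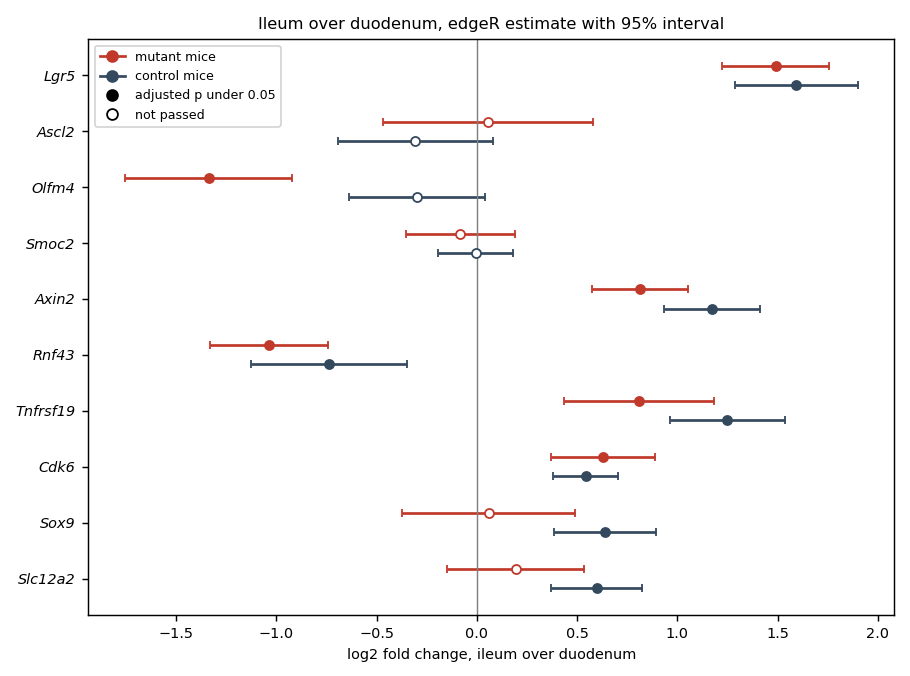
Log2 fold change, ileum over duodenum, of each gene in mutant mice (red) and control mice (dark), edgeR estimates from 4 mice with 95% intervals; filled points have an adjusted p under 0.05. Lgr5 lies farthest to the right in both genotypes (1.49 and 1.59), and Rnf43 (-1.04 and -0.74) lies left of 0 in both.

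The 10 genes did not vary as one block from mouse to mouse. With the mean of each tissue and genotype group removed, the correlation of log2 CPM over the 16 libraries had a median of 0.108 over the 45 pairs of genes, ranging over -0.496 to 0.676, and 3 pairs stood above 0.5. These pairs were Axin2 with Sox9 (r = 0.676), Olfm4 with Axin2 (r = 0.536) and Olfm4 with Rnf43 (r = 0.527). Tnfrsf19 ran against the rest (r = -0.544 with the mean of the other members), as did Lgr5 weakly (r = -0.177). These values are descriptions over libraries that share mice, depth and composition. Of 10741 genes with a mean of at least 5 CPM, those most like the mean of the members were Mllt6 (r = 0.893), Slc37a3, Tm2d3, Pyy, Rbm43, Prim2, Agap3 and Surf2 (r = 0.799). Those most like Lgr5 were Capn2 (r = 0.785), Slc6a14, Dusp18, Kif23 and Pla2g4a, and those most like Olfm4 were Oxa1l (r = 0.912), Asb8, Slc39a11, Pccb and Vstm5. These are the highest of 10741 values over 16 libraries, and whether they exceed chance was not tested. Pyy, a gut hormone gene, averaged 5.33 CPM over all libraries. The 13 enteroendocrine markers summed to at most 9.85 CPM in mutant duodenum and 1.90 CPM in mutant ileum.

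Other genes of the stem cell signature moved in both directions. In the ileum 6 of 20 rose and 5 fell in mutant mice, with a median of 0.091, where 19% of all genes rose and 14.6% fell. Without C134 and C154, 2 rose and 4 fell, where 12.4% and 8.72% of all genes did. Igfbp4, a binding protein of insulin-like growth factors, averaged 91.1 ± 4.40 CPM in mutant ileum and 58.3 ± 2.24 CPM in control ileum (SD, n = 4 each), a log2 fold change of 0.67 (edgeR adjusted p = 0.000121). Myb, a transcription factor of crypt progenitors, rose by 0.59 (edgeR adjusted p = 0.000245), while Rassf5, a Ras effector also made by lymphocytes, fell by 1.14 (edgeR adjusted p = 0.00113). The urea transporter gene Slc14a1 averaged 0.711 ± 0.148 CPM in mutant ileum and 3.65 ± 1.76 CPM in control ileum and fell by 2.34 (edgeR adjusted p = 0.000812). In the duodenum 2 of 20 rose and 2 fell, where 3.44% of all genes rose and 5.11% fell. Slc14a1 fell there too, by 1.93 (edgeR adjusted p = 0.00357), as did the nuclear receptor gene Nr2e3 by 1.87 (edgeR adjusted p = 0.00750), and the water channel gene Aqp4 and the ephrin receptor gene Ephb3 rose by 0.51 and 0.65.

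Wnt targets and feedback genes outside the members were likewise mixed in the ileum, where 3 of 19 rose and 5 fell with a median of -0.13, against 19% and 14.6% of all genes. Without C134 and C154, 1 of 20 rose and 1 fell, where 12.4% and 8.72% of all genes did. Without M167 and M177, 2 rose and 2 fell, where 18.3% and 10.9% of all genes did. Ephb2, the receptor that positions cells along the crypt, averaged 94.9 ± 4.84 CPM in mutant ileum and 52.1 ± 9.33 CPM in control ileum and rose by 0.89 (edgeR adjusted p = 0.000265). The Wnt inhibitor gene Apcdd1 fell by 0.70 (edgeR adjusted p = 0.00355), the repressor gene Sp5 by 1.17 (edgeR adjusted p = 0.0199) and Lef1, a TCF family factor that lymphocytes also express, by 1.80 (edgeR adjusted p = 0.0223). In the duodenum 2 of 20 rose, Znrf3, the close relative of Rnf43, by 0.44 (edgeR adjusted p = 0.0432) and Ephb3, and 1 fell, the Wnt deacylase gene Notum, by 2.55 (edgeR adjusted p = 0.0403), against 3.44% and 5.11% of all genes. Znrf3 differed between the tissues, with an ileum effect lower by 0.51 than the duodenum effect (edgeR adjusted p = 0.0429). Of 17 genes of the Wnt transduction machinery 2 rose (the coreceptor gene Lrp5 by 0.44 and the kinase gene Csnk1a1 by 0.29) and 1 fell (the coactivator gene Bcl9, by 0.33) in the ileum, where 33.6% of all genes changed. In the duodenum 0 of 17 passed in edgeR, where 8.55% of all genes did. There 2 of 17 had an unadjusted p under 0.05, where 29.2% of all genes did. The DESeq2 Wald test called 1 of 17, where it called 17.6% of all genes. Tcf7l1 had the smallest p there (log2 fold change 0.70, edgeR adjusted p = 0.0992).

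Of 24 niche signals tested in the ileum, 2 rose and 5 fell, where 19% of all genes rose, 14.6% fell and 33.6% changed in either direction. The share of the list that changed was near that of all genes. Without C134 and C154, 1 rose and 1 fell, where 12.4% and 8.72% of all genes did. Those named here had the smallest p, among them the Notch ligand genes Dll4 and Dll1. Dll4 averaged 12.7 ± 1.60 CPM in mutant ileum and 22.3 ± 1.25 CPM in control ileum (SD, n = 4 each), a log2 fold change of -0.78 (edgeR adjusted p = 0.000528), and Dll1 had -0.60 (edgeR adjusted p = 0.0162). Wnt2b, a stromal Wnt ligand, fell by 0.51 (edgeR adjusted p = 0.0150) and Nrg1, a growth factor of the EGF family, rose by 1.07 (edgeR adjusted p = 0.00350). In the duodenum 1 of 23 changed, where 8.55% of all genes did: Wnt4 fell by 0.90 (edgeR adjusted p = 0.0192). The effect on Dll4 was lower in the ileum than in the duodenum by 0.61 (edgeR adjusted p = 0.0254), the 1 of 24 that differed in that direction, against 4.13% of all genes.

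Of 13 genes of reserve stem cells and of the regenerating epithelium, 7 rose in mutant ileum and none fell, where 19% of all genes rose and 14.6% fell. The other 6 did not pass, with estimates from -2.03 to 0.27. The DESeq2 Wald test called 7 of 13 higher and 1 lower, where it called 19.8% of all genes higher and 17.8% lower. Without C134 and C154, 2 of 13 rose, where 12.4% of all genes did. Il1rn, the interleukin 1 receptor antagonist, had the smallest p, at 47.9 ± 23.6 CPM in mutant ileum and 5.35 ± 0.923 CPM in control ileum (SD, n = 4 each; log2 fold change 3.19, edgeR adjusted p = 0.000289). The annexin genes Anxa3 and Anxa1 rose by 1.23 and 1.22 (edgeR adjusted p of 0.00103 and 0.00612), and Spp1, osteopontin, by 1.77 (edgeR adjusted p = 0.00672). In the duodenum 1 of 13 passed, where 8.55% of all genes did: Il1rn fell by 0.60 (edgeR adjusted p = 0.0421). The effect was higher in the ileum than in the duodenum for 5 of 13, where it was for 4.86% of all genes. The smallest p belonged to Il1rn, Anxa3, Anxa1 and Hopx (edgeR adjusted p of 8.72e-05, 0.00481, 0.0192 and 0.0193). Clu went the other way, with the most negative difference of the list, -3.70 on the log2 scale, and did not pass (edgeR adjusted p = 0.0564).

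All 14 proliferation genes rose in mutant ileum, where 19% of all genes did, and where Lgr5 and Ascl2 had estimates of -0.31 and -0.29 that did not pass. Their median log2 fold change was 0.99 against -0.032 over all genes. The smallest p belonged to Rrm2, Mcm5, Mcm3 and Ccna2, with log2 fold changes of 1.70, 1.09, 1.08 and 1.32. Rrm2, a subunit of ribonucleotide reductase, averaged 54.8 ± 8.42 CPM in mutant ileum and 17.1 ± 1.24 CPM in control ileum (SD, n = 4 each). Without C134 and C154, or without M167 and M177, 13 of 14 rose, where 12.4% and 18.3% of all genes did. In the duodenum 2 of 14 rose, where 3.44% of all genes did, Ccna2 by 0.54 (edgeR adjusted p = 0.0383) and Top2a by 0.45 (edgeR adjusted p = 0.0464), and all 14 estimates were positive with a median of 0.35. The ileum effect exceeded the duodenum effect for 9 of the 14 genes, where it did for 4.86% of all genes.

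**Figure D4:**
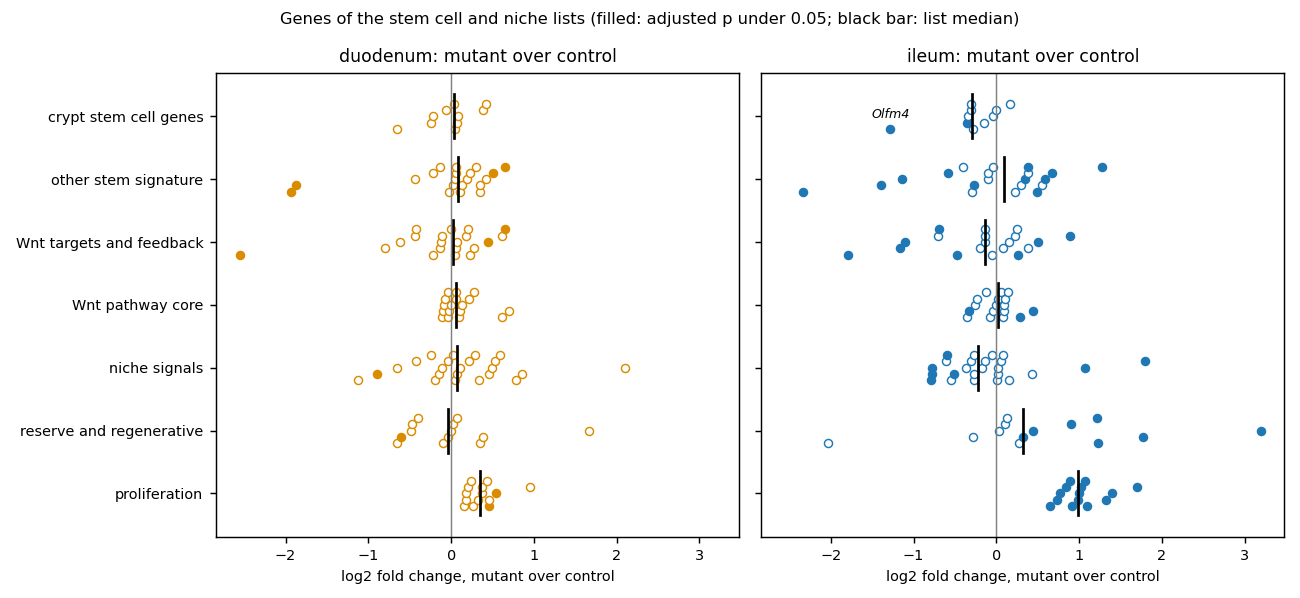
Log2 fold change, mutant over control, of each tested gene of the 10 crypt stem cell genes and of 6 related lists in duodenum (left) and ileum (right); filled points have an edgeR adjusted p under 0.05, black bars are list medians, and points are spread vertically for legibility. In ileum the proliferation genes all lie right of 0 with a median of 0.99, and the crypt stem cell genes lie around a median of -0.29 with Olfm4 apart at -1.28.

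Markers of other cells moved with the genotype in the same libraries. In mutant ileum all 10 T cell markers fell, where 14.6% of all genes did, with a summed level of 15.7 to 30.2 CPM in mutant ileum and 66.7 to 109 CPM in control ileum, and they fell as well without C134 and C154. Of 9 follicular B cell markers 7 fell, with sums of 5.80 to 9.30 CPM in mutant ileum, against 12.6, 187, 15.6 and 209 CPM in control ileum (C133, C134, C151, C154). The 2 control mice C134 and C154 stood apart from the other controls, and without them 2 of 9 fell, where 8.72% of all genes did. Without M167 and M177 the edgeR test called 0 of 9, with 0 at an unadjusted p under 0.05, where 10.9% of all genes fell. With all libraries the DESeq2 Wald test called 9 of 9 lower, where it called 17.8% of all genes lower. Of 10 epithelial markers 3 rose and none fell in ileum, where 19% of all genes rose and 14.6% fell. Their sums were 11591 to 14684 CPM in mutant ileum and 10466 to 12216 CPM in control ileum. Of 8 fibroblast markers 2 fell in each tissue, where 5.11% of all genes fell in duodenum and 14.6% in ileum. Their sums were 459 to 634 CPM in mutant duodenum and 703 to 922 CPM in control duodenum. In ileum they were 802 to 1372 CPM in mutant mice and 962 to 1355 CPM in control mice. None of the T cell, B cell, epithelial or fibroblast markers was at 0 in any group. With the level of the epithelial markers as a covariate, the Olfm4 fold change in ileum was -1.88 and passed (edgeR adjusted p = 0.0121), and Rnf43 had -0.49 and did not (edgeR adjusted p = 0.136). The part of the T cell and B cell markers in these results was not tested.

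Paneth cells are the niche partners of the stem cells. Of 9 Paneth markers 5 rose in the duodenum, where 3.44% of all genes did, with sums of 6222 to 7421 CPM in mutant duodenum and 4092 to 5187 CPM in control duodenum. Without C134 and C154, or without M167 and M177, 3 of 9 rose there, where 0.203% and 0.763% of all genes did. In the ileum 2 of 9 rose and 1 fell, where 19% and 14.6% of all genes did, with sums of 7323 to 14989.5 CPM in mutant ileum and 9939 to 16292 CPM in control ileum. The 12 exocrine pancreas genes summed to 8754, 194354, 43431 and 187055 CPM in mutant duodenum (M136, M167, M168, M177), against 31899.7, 8.97, 20193 and 4.19 CPM in control duodenum (C133, C134, C151, C154). M167 and M177 were high, with 15.4% and 15.1% of their counts in these genes, and C134 and C154 had almost none. These pairs of mice were therefore left out together in the alternatives. In the duodenum, leaving out C134 and C154 left 2 of 20 stem cell signature genes called. The edgeR test then called 0 of 20 Wnt targets and 0 of 14 proliferation genes, where 0.203% of all genes rose and 0.893% fell. An unadjusted p under 0.05 was reached by 5 of these Wnt targets, 4 of these proliferation genes and 3166 of all 18252 genes. With the level of the exocrine pancreas genes as a covariate, none of the crypt stem cell genes passed in the duodenum. Few of all genes did in that fit, 43 of 17611 rising and 190 falling.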

How the data were processed

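Total RNA from duodenum and ileum was sequenced from stranded, ribodepleted libraries. The authors deposited raw gene counts, which were not altered. Per the submitters' processing notes, the authors worked with STAR 2.5.3a, HTSeq 0.6.1p1, Bowtie2 2.2.8 and cutadapt 1.10 on mm39. Neither the annotation release nor whether counting used strand is stated in the sources used here. GENCODE M21, built on an earlier assembly, gave names for 52083 of 55359 identifiers and the exon lengths; the 3276 unnamed ones held 1.02% of counts. Reads shared with near-identical copies or overlapping genes may be split or dropped.

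The fits used edgeR 4.0.16 (limma 3.58.1, R 4.3.3): filterByExpr, scaling by the trimmed mean of M values, the robust quasi-likelihood F test and Benjamini-Hochberg adjustment over all tested genes, with a threshold of 0.05. Genotype was tested in the 8 libraries of a tissue, tissue in the 8 libraries of a genotype, and genotype by tissue in all 16. Levels are CPM; log2 CPM used a prior count of 2. Totals of 40.9 to 67.2 M counts leave Ascl2, at 114 to 382 counts, with the widest counting error. P-values of the genotype tests within a tissue measure the spread between mice. The main tissue and genotype by tissue tests leave out the pairing by mouse, so their p-values measure the spread between libraries. The fits were tested on simulated data.

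The members and lists were chosen with earlier results of these data known. Named are the 10 members, Neurog3, up to 4 genes with the smallest p of each related list per comparison, and the genes whose residual log2 CPM was most like the members (8 for their mean, 5 each for Lgr5 and Olfm4). Clu is named as well, for the most negative genotype by tissue difference of its list. Cell type markers were used as whole lists. The tissues are paired by mouse: same-numbered libraries are taken from the titles to be of the same animal. The deviations of a mouse's libraries from their group means correlated at 0.221 to 0.481, and M168 correlated slightly better with another mouse (0.26) than with itself (0.253). Alternatives were DESeq2 1.42.0 size factors and Wald test, limma-voom, low counts unfiltered or cut at 1 CPM in 4 libraries, single mice left out, mutant mice M167 and M177 or control mice C134 and C154 left out together, epithelial or exocrine pancreas genes as a covariate, all 16 libraries in 1 fit, and the mouse as a block. The counts of related and marker lists without the pairs of mice and by the Wald test were added after seeing the data.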

Additional observations from a re-analysis of the deposited data

Results flagged for a closer look

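Olfm4 in ileum of control mouse C134 was 899 CPM, while the other 3 control libraries lay at 560.4 to 585 CPM. The gap to its nearest neighbour was 0.927 of the range of the group, above Dixon's 95% critical value for 4 samples. Of 40 combinations of gene and group examined in this way, it was the one that passed, and chance alone flags about 5% of such groups. C134 was also the control with the lowest Rnf43 in duodenum, at 47.8 CPM against 69.6 to 87.2 CPM in the other 3.

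The genotype effect on Olfm4 differed between the tissues, by -1.04 on the log2 scale (ileum minus duodenum). It was -1.28 in ileum and -0.25 in duodenum. Olfm4 was lower in every mutant library than in every control library in both tissues. Groups stood apart in 1 direction or the other for 32.5% of all genes in ileum and 18.7% in duodenum. In duodenum the gap was narrow, 749.6 against 750.4 CPM, and the effect did not pass (edgeR adjusted p = 0.267). The difference between the tissues passed in 9 of 16 alternative fits.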

How the results depend on the processing

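Of 740 values of single members under alternatives, 669 kept their direction and side of the threshold, 17 lost a call, 17 gained one and 37 changed sign, and each of those 37 had not passed. Olfm4 in ileum stayed called in all 18 alternatives, at -1.88 to -1.02 with an edgeR, limma or DESeq2 adjusted p of at most 0.0121. In duodenum the number of members called was 2 with the DESeq2 Wald test, 1 with all 16 libraries in 1 fit and 0 to 1 with a mouse left out. Of all genes the Wald test called 17.6%, against 8.55% in the main fit. The fit of all 16 libraries called 1202 of 19289 higher and 1289 lower. In ileum the number of members called was 4 with the DESeq2 Wald test (Axin2 and Tnfrsf19 added) and 1 without M167 and M177. It was 1 with epithelial genes as a covariate and 1 to 3 with a mouse left out. Of all genes the Wald test called 37.6%, against 33.6% in the main fit. Without M167 and M177, 3512 of 19216 genes rose and 2103 fell. With the epithelial covariate 863 of 18310 rose and 577 fell. For genotype by tissue the number of members called was 0 without C134 and C154, 0 without M167 and M177 and 2 with the mouse as a replicate block. It was 0 to 1 with a mouse left out, Olfm4 being the member lost where it was 0. Of all genes, 14 of 20053 were higher and 8 lower without C134 and C154, and 927 and 366 of 20129 without M167 and M177. With the block 2090 and 1937 of 19289 were, against 938 and 796 in the main fit. Between tissues the number of members called was 6 in mutant mice whichever mouse was left out, and 7 to 8 in control mice. The block changed no other call. The cause was not tested.

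Signs changed for values near 0. In duodenum, Smoc2 was -0.0093 without C134 and C154, -0.038 without M167 and M177 and -0.046 with the pancreas covariate, and Cdk6 was -0.0091 without M167 and M177. In ileum, Slc12a2 was 0.0071 without a filter and 0.18 with the epithelial covariate, Sox9 was 0.012 without C134 and C154 and 0.084 with the epithelial covariate, and Smoc2 was 0.080 without M167 and M177 and 0.0027 with the pancreas covariate. Without M167 and M177, Smoc2 was 0.085 for genotype by tissue and 0.086 between tissues in mutant mice. Between tissues in control mice Smoc2 was 0.019 with DESeq2 size factors, 0.019 with the Wald test, 0.0021 with limma-voom, 0.059 with the 1 CPM filter and 0.0018 with the mouse as a replicate block. With a mouse left out, duodenum values ranged over -0.053 to 0.094 for Smoc2, -0.22 to 0.032 for Rnf43, -0.032 to 0.20 for Tnfrsf19 and -0.032 to 0.11 for Cdk6. Ileum values ranged over -0.11 to 0.011 for Smoc2 and -0.086 to 0.085 for Slc12a2, and genotype by tissue values over -0.23 to 0.054 for Lgr5 and -0.22 to 0.047 for Smoc2. Tissue values in mutant mice ranged over -0.12 to 0.35 for Ascl2, -0.22 to 0.042 for Smoc2 and -0.041 to 0.16 for Sox9, and in control mice over -0.039 to 0.056 for Smoc2.

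Over all genes, the number called moved by more than 1.5 times in some fits. In duodenum 606 genes rose and 900 fell, against 1387 and 1585 with the DESeq2 Wald test, 1202 and 1289 with all 16 libraries, 43 and 190 with the pancreas covariate, 37 and 163 without C134 and C154, and 140 and 305 without M167 and M177. In ileum 3474 rose and 2672 fell, against 863 and 577 with the epithelial covariate and 2390 and 1677 without C134 and C154. For genotype by tissue 938 were higher and 796 lower, against 14 and 8 without C134 and C154, 927 and 366 without M167 and M177, 1771 and 1428 with the DESeq2 Wald test and 2090 and 1937 with the mouse as a block.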
